A study of Columba livia with 12 samples.

Results

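The step from 1 day (1d) to 14 days (14d) after hatching was examined in the liver miRNAs of Columba livia, the domestic pigeon, of the white king breed. It rests on 6 of the 12 small RNA libraries of the series, 3 per age and each from a different bird, and covers all 1039 mature miRNA names in the deposited table. Birds of both ages were squabs, the nestlings of pigeons, of mixed sex and with no other treatment named, and liver was taken from the same anatomical place in each. Which sex each sequenced bird had is not stated. The libraries of 28 days (28d) and 2 years (2y) entered the statistical model as other ages and are not described. The labels put 3 libraries at the stage 1d, but a second label of 1d replicates 2 and 3 names birds of 2 and 3 days, so the first group may span days 1 to 3.

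A miRNA is cut from a hairpin transcript as a short duplex. One strand of the duplex, from the 5p or the 3p side of the hairpin, is usually loaded into an Argonaute protein and kept, while the other is mostly lost, so that most hairpins have a major and a minor arm. The loaded arm finds its messenger RNAs mainly by its seed, a short stretch near its 5′ end, and miRNAs with the same seed form a family with overlapping targets. The arms of one hairpin carry different seeds. In the squab liver these weeks cover the time from the use of yolk to feeding on crop milk and then seed, with fast growth of the organ. No sequences are printed because none were in the material used.

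Total counts were 3622530, 4663652 and 4477465 at 1d and 3741429, 5707125 and 7088182 at 14d, in the order of replicates 1 to 3 that is kept for every list of 3 values below. Levels are in CPM, counts scaled to a common library total, on library sizes scaled by the trimmed mean of M-values (TMM). A floor of 3 counts, set for a count of 0 and not a strict maximum, came to 0.326 to 0.614 CPM. Of the 1039 names 200 had no count in the 6 libraries and 345 passed the filter on low counts. Of those tested, 107 changed by the quasi-likelihood F test of edgeR at a Benjamini-Hochberg adjusted p under 0.05, which is 31% of them, with 58 higher (16.8%) and 49 lower (14.2%) at 14d. The median log2 fold change over all tested names was 0.49, or 0.17 with scaling to the total count alone. The split was 46 higher and 60 lower with relative log expression factors, 30 and 48 with the total count alone, 59 and 50 with upper-quartile factors, 35 and 55 with a stricter filter, 58 and 71 with the 6 libraries alone, and 39 and 59 with TMM after leaving out names with uneven zeros, which stood at 0 in 1 library and at 300 counts or more in another of the same age. Of the calls 15 higher and 18 lower held in all 22 alternative settings, and most of the miRNAs described first are from these 33. In bulk liver fewer cells of a type and less RNA per cell cannot be told apart.

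**Figure D1:**
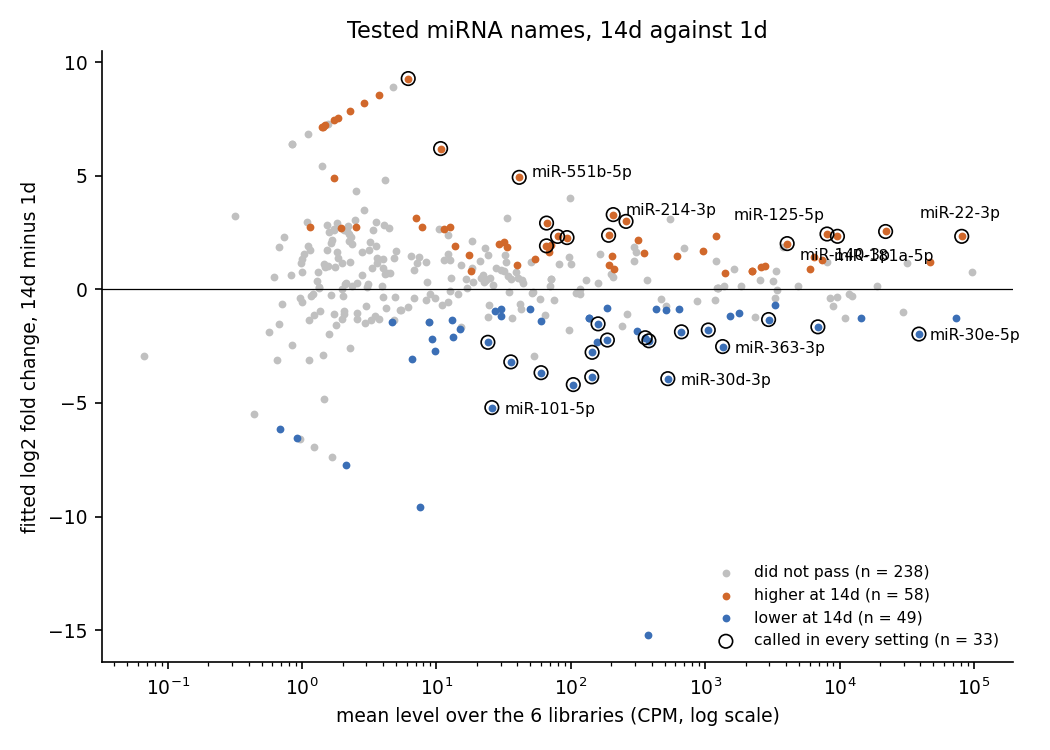
Each point is 1 of the 345 tested miRNA names, with the mean level over the 6 libraries of 1d and 14d in CPM on a log axis against the fitted log2 fold change of 14d against 1d. Orange points are the 58 names called higher, blue the 49 called lower, grey the 238 that did not pass, and rings mark the 33 calls that held in all 22 alternative settings.

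The names differ in abundance over several orders of magnitude, and the share of tested names that was called differed between abundance classes. With a mean of at least 10000 CPM over the 6 libraries stood 13 names, which held 73.5, 74.8 and 77.1% of the counts at 1d and 72.4, 74.6 and 76.1% at 14d, and 3 of them were higher, 3 lower and 7 did not pass. Of 39 names between 1000 and 10000 CPM 12 were higher and 7 lower. Between 100 and 1000 CPM 49 of 50 names were tested, and 10 were higher and 18 lower, 57.1% of the tested names against 31% over all. Between 10 and 100 CPM 89 of 93 were tested, with 18 higher and 12 lower. Under 10 CPM 155 of 844 names passed the filter, 15 higher and 9 lower, and a name there could pass through the age in which it is high. The median coefficient of variation between birds was 21.1% at 1d and 21.8% at 14d for the first class. It was 24.9% and 29.2% for names of 10 to 100 CPM and 58.5% and 58.6% for tested names under 10 CPM. The median absolute log2 fold change of tested names was 1.47 between 100 and 1000 CPM and 1.55 under 10 CPM. The shares therefore compare calls and not sizes of change.

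The order of the most abundant miRNAs differed between the ages. The 10 names with most counts in a library were taken from 17 names in all, and 4 of these, miR-26-5p, miR-148a-3p, miR-22-3p and miR-30d-5p, were among the 10 in all 6 libraries. miR-21-5p, which is induced in growing and injured liver of mammals, was among them in every 1d library and in no 14d library, and miR-181a-5p in every 14d library and in no 1d library. miR-125-5p and miR-2954-3p reached the 10 in 14d replicates 1 and 2 alone. Adaptors join some sequences better than others, so ranks compare counts and not molecules.

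miR-22-3p, a liver-expressed miRNA known in mammals for control of metabolic and cell cycle genes, was the most abundant name that rose. It was at 23638, 32785 and 24235 CPM at 1d and 118759, 132558 and 154734 CPM at 14d, 5.03-fold higher (log2 fold change 2.33 ± 0.47 SE, edgeR adjusted p = 0.00545). The groups did not overlap. Its minor arm miR-22-5p rose too, 2.87-fold (26.1 ± 1.72 against 9.09 ± 0.423 CPM, SD, n = 3, edgeR adjusted p = 0.00600). The miR-22-5p call was lost when the fit used total count alone or no count filter (adjusted p 0.0856 to 0.346). miR-181a-5p, best known from lymphocyte development and also expressed in liver, was at 6148, 5247 and 7924 CPM at 1d and 42977, 30525 and 39249 CPM at 14d (5.84-fold higher, edgeR adjusted p = 0.00316). Its relative miR-181b-5p, which shares the seed, went from 641, 483 and 993 to 1891, 1519 and 1676 CPM with no overlap but did not pass (edgeR adjusted p = 0.0919). No overlap between the ages in the higher direction was found for 36.5% of the tested names, and in the lower direction for 22.3%.

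miR-140-3p, from a hairpin in an intron of a ubiquitin ligase gene and known from cartilage, was nearly equal in the 1d birds and higher in each 14d bird. It was at 1583, 1598 and 1675 CPM at 1d and 8575, 5182 and 5836 CPM at 14d (4.04-fold higher, log2 fold change 2.01 ± 0.23 SE, edgeR adjusted p = 2.54e-04). miR-125-5p, whose family is tied to cell differentiation, was at 2918, 2785 and 3879 and then 22879.7, 13194 and 12224 CPM, 5.04-fold higher (edgeR adjusted p = 2.54e-04). miR-365-3p, chosen after its values were seen, went from 117, 113 and 120.4 to 548, 504 and 509.8 CPM, 4.46-fold higher (edgeR adjusted p = 0.00184). The miR-365-3p call was lost when the fit used no count filter (adjusted p 0.0508). These values show groups that did not overlap, with 14d replicate 1 the highest of its age for miR-140-3p, miR-125-5p and miR-365-3p.

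Among the falls, both arms of miR-101, a family known to repress chromatin regulator genes, were lower at 14d. miR-101-3p was at 3757, 4799.6 and 4158 CPM at 1d and 2043, 1482 and 1538 CPM at 14d, 2.51-fold lower (edgeR adjusted p = 0.00182). miR-16b-5p, of the miR-15/16 family that represses cell cycle genes, was at 847, 1349 and 939 and then 332, 260.0 and 266 CPM, 3.65-fold lower (edgeR adjusted p = 4.81e-04). Its relative miR-16a-5p was 1.60-fold lower (2529 ± 415 against 4051 ± 609 CPM, SD, n = 3, edgeR adjusted p = 0.0233). The miR-16a-5p call was lost when 1d replicate 2 or 14d replicate 2 was left out (adjusted p 0.0592 to 0.0615) and when the fit used the replicate block (adjusted p 0.0513). In the same family miR-15a-5p (adjusted p = 0.119 in edgeR), miR-15b-5p and miR-15c-5p did not pass. Over the 10 tested names of the miR-15/16 family, a group chosen after its values were seen, 0 were higher and 3 lower, a share of calls near the 31% over all tested names, with a median log2 fold change of -0.78 against 0.49 over all tested names. miR-21-5p was 2.42-fold lower, at 14081, 25752 and 21946 and then 9167, 6446 and 9967 CPM (edgeR adjusted p = 0.0348). The miR-21-5p call was lost when 1d replicate 2, 1d replicate 3, 14d replicate 2 or 14d replicate 3 was left out (adjusted p 0.0602 to 0.107). Its minor arm miR-21-3p was 2.86-fold lower (edgeR adjusted p = 0.00778) and that call held in every setting.

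**Figure D2:**
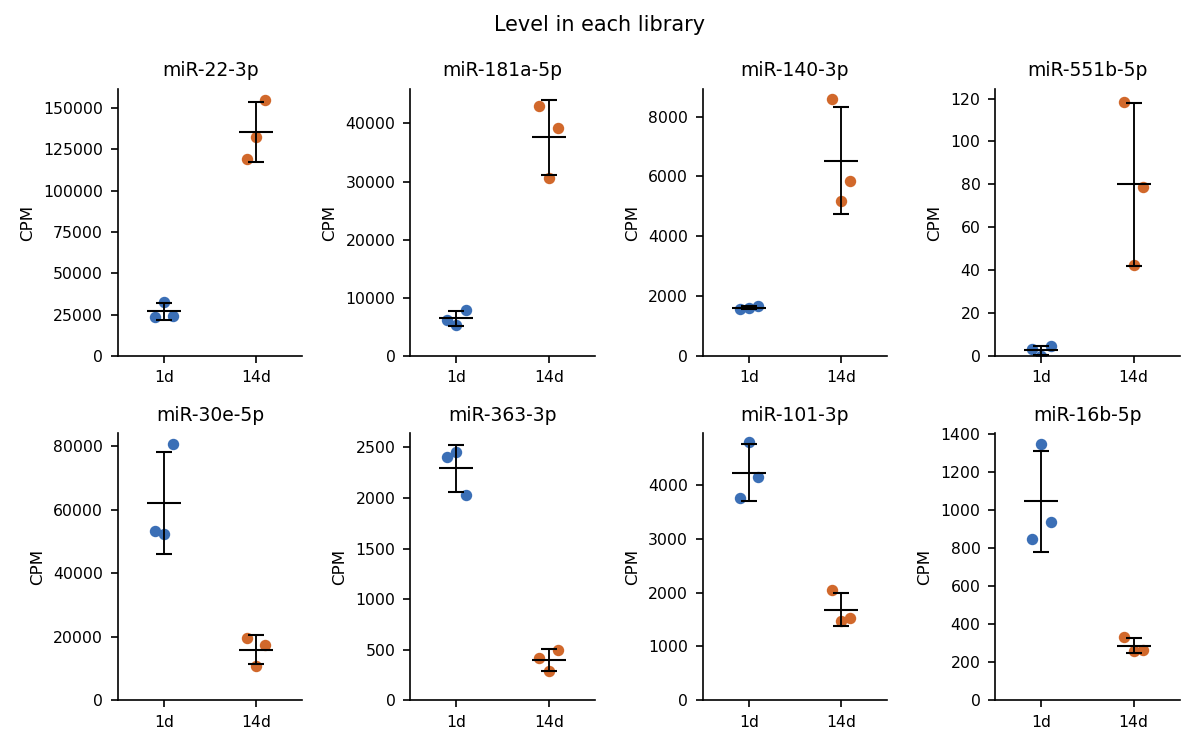
Each panel plots the level of 1 miRNA in CPM from 0, with points for the 3 libraries of 1d (blue) and 14d (orange), the mean as a line and the SD as bars. In the upper row the 14d libraries lie above the 1d libraries and in the lower row below them, with no overlap in any panel.

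The miR-30 family, whose members share a seed and are abundant in liver, changed its make-up. miR-30e-5p held 53.1, 56.1 and 53.3% of the family's counts at 1d and 13.8, 14.6 and 15.8% at 14d. miR-30d-5p held 23.6, 22.0 and 28.1% at 1d and 62.7, 58.4 and 59.0% at 14d. The leading member was therefore miR-30e-5p in every 1d library and miR-30d-5p in every 14d library, and these shares within the family do not depend on scaling. On the CPM scale miR-30e-5p fell from 53264, 52325 and 80572 to 19468, 10757 and 17373 CPM (log2 fold change -1.97 ± 0.31 SE, edgeR adjusted p = 0.00154), a call that held in every setting. miR-30d-5p was 2.27-fold higher, at 23626, 20478 and 42401 and then 88157, 43182 and 65026 CPM (edgeR adjusted p = 0.0278). The miR-30d-5p call was lost when 1d replicate 1, 1d replicate 2, 14d replicate 1, 14d replicate 3 or 28d replicate 1 was left out (adjusted p 0.0669 to 0.190) and when the fit used total count alone, no count filter or no uneven-zero names (adjusted p 0.0786 to 0.270). miR-30a-5p held 17.5, 15.6 and 14.7% of the family at 1d and 15.0, 20.9 and 20.7% at 14d and did not pass in CPM (edgeR adjusted p = 0.698). The minor arm miR-30c-3p rose 5.20-fold, from 59.2, 47.9 and 77.6 to 323, 283 and 355 CPM (edgeR adjusted p = 0.00154). The whole family held 19.6, 15.1 and 24.3% of all counts at 1d and 18.3, 11.5 and 14.3% at 14d, and these ranges overlap.

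The miR-17-92 list, made of the clusters of miR-17-92 and miR-106-363 whose members promote proliferation, also changed its make-up. Of its 20 names 19 were tested, and 0 were higher and 10 lower against backgrounds of 16.8% and 14.2%. miR-92-3p held 69.9, 76.4 and 68.8% of the list's counts at 1d and 96.4, 94.7 and 89.3% at 14d. Shares within a list add up to the whole, so that of the remaining members together was necessarily lower at 14d. Among them miR-363-3p, encoded next to miR-92 in the second cluster of other vertebrates, held 10.8, 8.33 and 6.67% and then 0.541, 0.780 and 1.98%. miR-363-3p fell 5.73-fold, from 2402, 2455 and 2025 to 420.4, 284 and 498 CPM (edgeR adjusted p = 2.54e-04), and its minor arm miR-363-5p 9.14-fold (edgeR adjusted p = 0.00184). miR-20b-5p fell 4.80-fold (131 ± 22.2 against 631 ± 74.5 CPM, SD, n = 3, edgeR adjusted p = 8.51e-04), and miR-19b-3p 3.46-fold (edgeR adjusted p = 0.00617). Both arms of miR-106 fell, miR-106-5p from 258, 302 and 365 to 74.9, 46.8 and 75.4 CPM (4.69-fold, edgeR adjusted p = 4.81e-04) and miR-106-3p 6.82-fold (edgeR adjusted p = 6.76e-04). miR-18b-5p fell 14.4-fold (edgeR adjusted p = 2.54e-04), from 242, 353 and 208 to 28.7, 12.2 and 14.8 CPM, or 22.1-fold without 14d replicate 1. For each of these members, all named from those called lower, the ages did not overlap. No overlap in the lower direction was found for 15 of the 19 tested names of the list and for 22.3% of all tested names. miR-92-3p itself was at 15532, 22504 and 20879.6 and then 74911, 34504 and 22416 CPM and did not pass (edgeR adjusted p = 0.0829). miR-17-5p, the founding member, was at 843, 942 and 1251 and then 776, 622 and 744 CPM and did not pass (edgeR adjusted p = 0.0899). miR-19a-3p was at 0 in 1d replicates 1 and 2 and at 1064 CPM in replicate 3, so no difference was read from it.

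**Figure D3:**
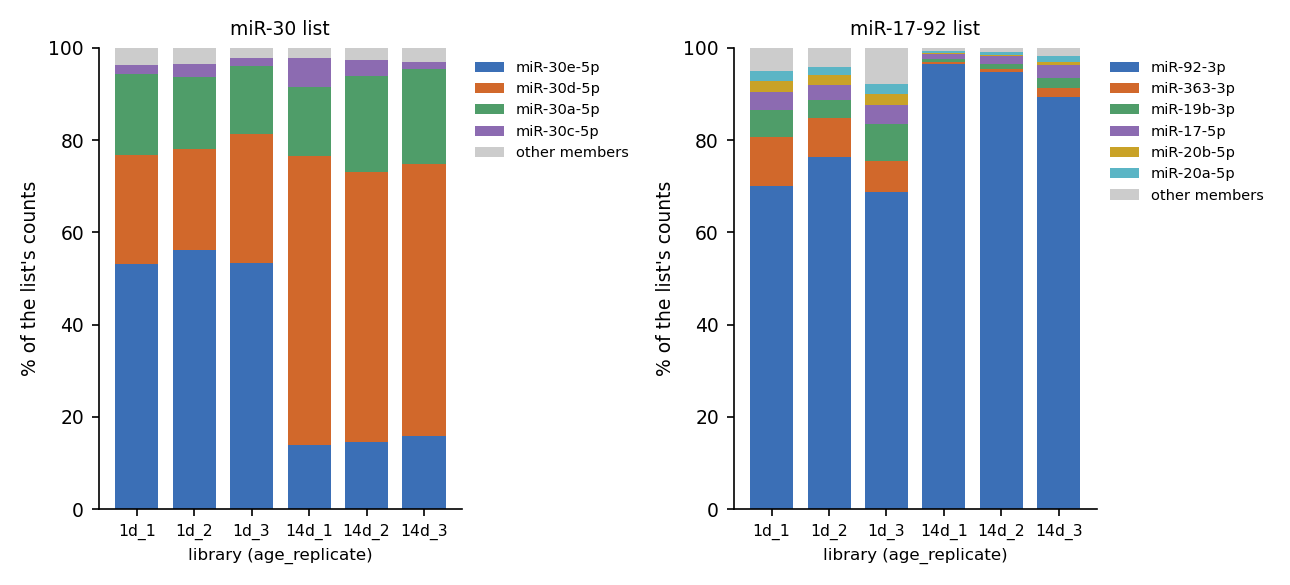
Stacked bars give, for each of the 6 libraries, the percent of a list's counts held by each named member, for the miR-30 list (left) and the miR-17-92 list (right). miR-30e-5p leads the 1d libraries and miR-30d-5p the 14d libraries, and miR-92-3p fills 68.8 to 76.4% of the miR-17-92 list at 1d and 89.3 to 96.4% at 14d.

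The members of let-7, known for promoting differentiation and repressing growth genes, were present in different proportions at the ages. Of 15 names 14 were tested, with 4 higher and 3 lower against 16.8% and 14.2% over all tested names, and 2 higher and 3 lower with the total count alone. let-7f-5p held in 14 of 22 settings, and its log2 fold change of 1.61 was 0.72 without 14d replicate 1 (edgeR adjusted p = 0.229). let-7a-5p held 28.1, 26.9 and 30.7% of the family's counts at 1d and 48.4, 47.3 and 35.8% at 14d, and let-7i-5p 32.1, 31.2 and 31.7% and then 16.9, 19.5 and 27.6%. In CPM let-7d-5p was 3.17-fold higher (1461 ± 202 against 461 ± 98.9, SD, n = 3, edgeR adjusted p = 0.0137). The let-7d-5p call was lost when 1d replicate 1, 1d replicate 2 or 14d replicate 2 was left out (adjusted p 0.0580 to 0.0696) and when the fit used no count filter (adjusted p 0.0759). let-7i-5p did not pass (edgeR adjusted p = 0.873), and the let-7a-5p call held in 4 of 22 settings. The let-7a-5p call was lost when any of the 6 libraries compared or any of 5 others was left out (adjusted p 0.0639 to 0.190) and when the fit used relative log expression factors, total count alone, no count filter, the stricter filter, DESeq2, the replicate block or no uneven-zero names (adjusted p 0.0526 to 0.264). The minor arm let-7d-3p rose 5.02-fold (edgeR adjusted p = 0.00154), from 26.1, 25.3 and 27.8 to 216, 104 and 78.8 CPM, or 3.13-fold without 14d replicate 1. The 3 names that fell were the minor arms let-7a-3p, let-7e-3p and let-7f-3p. The let-7a-3p call was lost when 1d replicate 2, 1d replicate 3, 14d replicate 2 or 14d replicate 3 was left out (adjusted p 0.0559 to 0.0776). let-7a-3p and let-7e-3p had counts within 0.806% of each other in each library, so their reads may be shared and the pair counts as 1 measurement.

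The miR-130 and miR-301 names, whose 3p arms share a seed, were chosen after their values were seen. Of 8 tested names 2 were higher, both 3p arms, and 4 lower, with both arms of miR-301b among them. Calls came to 75% of these names against 31% over all tested names, in a group picked for its values. miR-130a-3p was 1.67-fold higher (989, 1022 and 1131 CPM at 1d and 1620.0, 1495 and 2131 CPM at 14d, edgeR adjusted p = 0.0278) and miR-130c-3p 1.95-fold (edgeR adjusted p = 0.00946). miR-301b-3p was 2.04-fold lower (2318, 1935 and 2950.1 CPM at 1d and 1118, 1079 and 1339 CPM at 14d, edgeR adjusted p = 0.0278) and miR-301a-3p 1.80-fold (edgeR adjusted p = 0.0400). The miR-130a-3p call was lost when any of the 6 libraries compared or any of 4 others was left out (adjusted p 0.0540 to 0.290) and when the fit used relative log expression factors, total count alone, no count filter, the stricter filter, the 6 libraries alone, the replicate block or no uneven-zero names (adjusted p 0.0552 to 0.622). The miR-130c-3p call was lost when 1d replicate 2, 14d replicate 3 or 28d replicate 1 was left out (adjusted p 0.0520 to 0.104) and when the fit used total count alone, no count filter, the stricter filter, the 6 libraries alone or no uneven-zero names (adjusted p 0.0657 to 0.396). The miR-301b-3p call was lost when 1d replicate 1, 1d replicate 3, 14d replicate 1, 14d replicate 2 or 14d replicate 3 was left out (adjusted p 0.0566 to 0.0801). The miR-301a-3p call was lost when any of the 6 libraries compared or 2y replicate 2 was left out (adjusted p 0.0505 to 0.115) and when the fit used total count alone, no count filter or the replicate block (adjusted p 0.0513 to 0.0697). The minor arm miR-301b-5p was 5.03-fold lower and held in all settings (edgeR adjusted p = 0.00184). Family numbers with at least 2 tested names came to 76, of which 23 had names higher and none lower, 23 names lower and none higher, 27 no call, and 3 calls in both directions, these being let-7, miR-30 and miR-130.

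The balance between the arms of a hairpin was tested as the ratio of 3p to 5p counts within a library, which no scaling changes. Both arms were tested for 103 hairpins, and the ratio changed in 30 of them (limma with Benjamini-Hochberg adjustment, 29.1%), 14 toward the 3p arm (13.6%) and 16 toward the 5p arm (15.5%). The median absolute change over all 103 was 1.17 in log2. In each of the 30 the 14d libraries did not overlap the 1d libraries, as in 57.3% of all 103. The major arm is here the arm with more counts over the 6 libraries together, 14d included, so the shift itself can help to set it. By that measure the change was toward the major arm in 22 of the 30, miR-33 and miR-551b among them although that arm held fewer counts at 1d, and toward the minor arm in 8. Hairpins not called were not counted in this way, so this split is not read as a trait of the called ones. Of the 30 calls 20 held in every alternative that could be run for them.

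miR-30d showed the change with the smallest p. Its 3p arm held 4.83, 3.86 and 2.18% of the hairpin's counts at 1d and 0.108, 0.0964 and 0.0883% at 14d, a change in the log2 ratio of -5.19 ± 0.33 SE, limma adjusted p = 2.85e-07. The minor arm miR-30d-3p fell 15.2-fold, from 1199, 821 and 946 to 95.6, 41.7 and 57.5 CPM (edgeR adjusted p = 7.24e-05), while miR-30d-5p, described above, was higher. In miR-30e the ratio moved the opposite way, with 2.32, 2.22 and 1.38% on the 3p arm at 1d and 6.75, 7.19 and 7.78% at 14d (a change in the log2 ratio of 1.99 ± 0.28 SE, limma adjusted p = 2.14e-04). There the major arm fell and miR-30e-3p was at 1266, 1188 and 1127 and then 1408, 834 and 1466 CPM and did not pass (edgeR adjusted p = 0.873). Counts of miR-30e-3p and miR-30a-3p lay within 3.21% of each other in each library, so this arm may hold reads of both hairpins.

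Minor arms fell in other hairpins too. The 3p arm of miR-100, a member of the miR-99/100 family that represses the growth regulator gene MTOR in mammals, held 2.10, 2.39 and 2.19% of its hairpin at 1d and 0.105, 0.0676 and 0.0573% at 14d (a change in the log2 ratio of -4.93 ± 0.55 SE, limma adjusted p = 4.55e-05). miR-100-3p fell 12.7-fold (8.77 ± 4.12 against 111 ± 7.26 CPM, SD, n = 3, edgeR adjusted p = 2.54e-04), or 19.4-fold without 14d replicate 1, while miR-100-5p was at 4916, 4446 and 5332 and then 12831, 8966 and 11746 CPM (edgeR adjusted p = 0.0759). The 3p arm of miR-2188, a miRNA of birds, reptiles and fish that mammals lack, held 13.3, 11.6 and 14.0% and then 0.876, 1.51 and 1.61% (a change in the log2 ratio of -3.50 ± 0.40 SE, limma adjusted p = 4.55e-05). miR-2188-3p fell 18.3-fold, from 196, 259 and 138 to 18.6, 7.07 and 6.84 CPM (edgeR adjusted p = 4.81e-04), or 31.5-fold without 14d replicate 1. Its 5p arm had 1281, 1964 and 846 CPM at 1d and 2109, 461 and 418 CPM at 14d and did not pass (edgeR adjusted p = 0.674), with 14d replicate 1 above every other library. For miR-101 the minor arm is 5p, and miR-101-5p fell from 46.1, 46.6 and 58.2 to 1.64, 1.24 and 1.19 CPM, 36.8-fold (edgeR adjusted p = 2.93e-05), far more than its major arm (for the ratio, limma adjusted p = 9.43e-07). At 14d this was 8, 11 and 11 counts, so the fold is less certain than the direction.

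**Figure D4:**
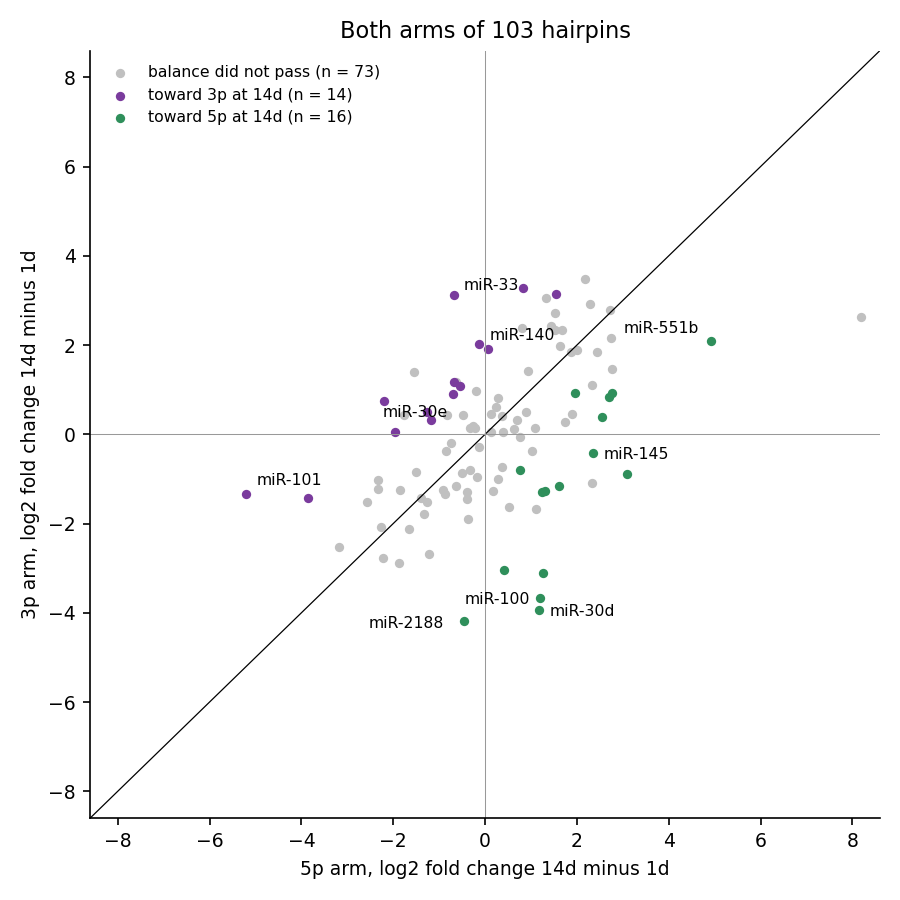
Each point is 1 of 103 hairpins, with the log2 fold change of its 5p arm on the x axis and of its 3p arm on the y axis, both for 14d against 1d. Points on the diagonal have arms that changed equally. Purple points are the 14 hairpins whose balance moved toward 3p, green the 16 that moved toward 5p, and grey the 73 that did not pass.

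In 2 hairpins the arm with more counts differed between the ages in all libraries. miR-33, hosted by a sterol regulator gene (SREBF) and known in mammals for repressing cholesterol export genes, had 17.0, 16.4 and 22.6% of its counts on the 3p arm at 1d and 70.8, 78.6 and 81.4% at 14d (a change in the log2 ratio of 3.89 ± 0.98 SE, limma adjusted p = 0.0110). miR-33-3p was at 6.36, 6.90 and 7.37 and then 71.0, 59.0 and 51.3 CPM (edgeR adjusted p = 0.0687), and miR-33-5p at 31.1, 35.2 and 25.3 and then 29.3, 16.1 and 11.7 CPM (edgeR adjusted p = 0.263), so that neither arm passed alone. miR-551b had 85.2, 96.2 and 76.8% on the 3p arm at 1d and 36.6, 44.2 and 40.4% at 14d (a change in the log2 ratio of -3.33 ± 0.59 SE, limma adjusted p = 0.00118). Both of its arms rose, miR-551b-5p 30.4-fold from 3.25, 0.133 and 4.45 to 119, 42.3 and 79.0 CPM (edgeR adjusted p = 0.00399) and miR-551b-3p 4.23-fold (edgeR adjusted p = 0.0278). The miR-551b-3p call was lost when 1d replicate 2, 1d replicate 3, 14d replicate 1, 14d replicate 2 or 14d replicate 3 was left out (adjusted p 0.0507 to 0.118) and when the fit used total count alone, no count filter or the 6 libraries alone (adjusted p 0.0573 to 0.119). In 1d replicate 2 miR-551b-5p had 1 count, and its rise was 19.7-fold without that library and 19.8-fold without 14d replicate 1. Over all 103 hairpins 49 had more counts on 5p in every library and 34 more on 3p in every library, and 18 did not lead on the same arm in each library of an age.

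Further hairpins changed balance with arms of known roles. miR-145, a miRNA of smooth muscle and other mesenchymal cells, had 21.0, 20.9 and 8.94% on the 3p arm at 1d and 2.33, 2.25 and 2.72% at 14d (a change in the log2 ratio of -2.94 ± 0.37 SE, limma adjusted p = 9.48e-05), and miR-145-5p rose 5.12-fold (edgeR adjusted p = 0.00984). The miR-145-5p call was lost when 1d replicate 1 or 1d replicate 2 was left out (adjusted p 0.0573 to 0.0577) and when the fit used total count alone or no count filter (adjusted p 0.0520 to 0.0594). let-7f had 23.9, 22.5 and 14.7% on the 3p arm at 1d and 2.32, 4.60 and 5.49% at 14d, and let-7a moved the same way (4.44 ± 0.599% to 0.770 ± 0.228%, SD, n = 3). miR-140 moved toward its major 3p arm, with 96.6, 97.0 and 96.7% and then 99.4, 99.2 and 99.0%. The immune-induced miR-146a and miR-146b moved toward their minor 3p arms, from 1.47 ± 0.636% to 5.94 ± 2.57% and from 2.27 ± 0.489% to 8.02 ± 2.47% (SD, n = 3, limma adjusted p 0.00887 and 0.00887). A separate 5p entry, conserved miR-146a-5p, had means of 89.0 CPM at 1d and 40.4 CPM at 14d and is not in the miR-146a ratio. That entry was at 0 in 1d replicate 1 and in 14d replicates 1 and 2, so 5p reads may be split unevenly between the entries. miR-146b-3p rose 3.77-fold (edgeR adjusted p = 0.00184), while miR-146b-5p did not pass (1265 ± 347 against 1214 ± 289 CPM, SD, n = 3, edgeR adjusted p = 0.934). By the same measure the major arms of the 103 hairpins had 23 higher and 17 lower calls and the minor arms 17 higher and 24 lower.

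**Figure D5:**
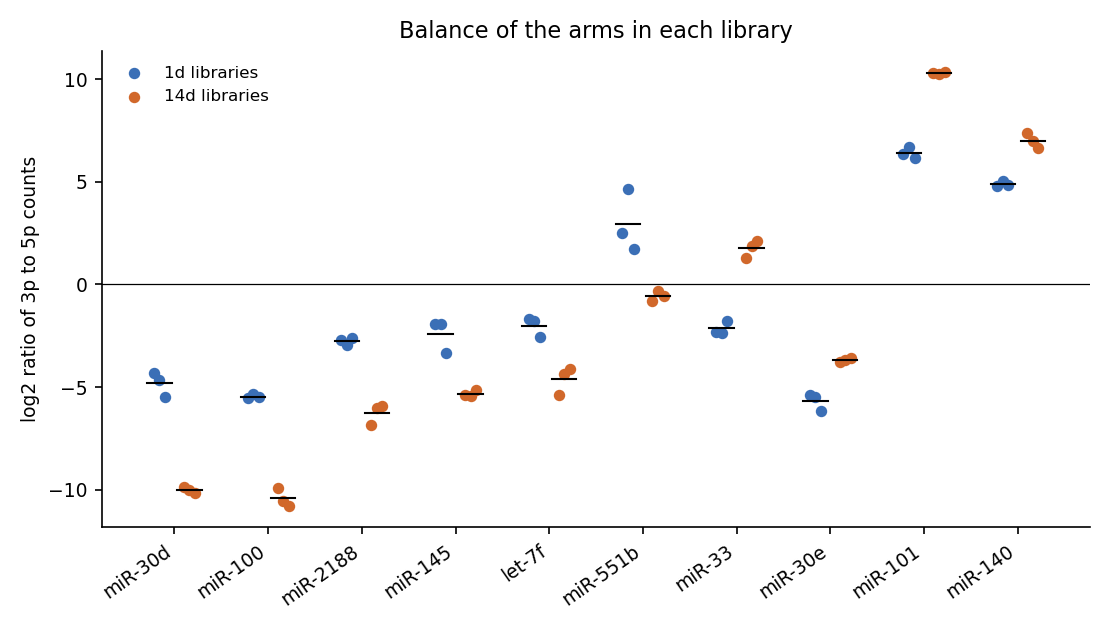
The log2 ratio of 3p to 5p counts is plotted for 10 hairpins in each 1d library (blue) and each 14d library (orange), with the mean of an age as a line. Values above 0 mean more counts on the 3p arm. The ages do not overlap in any of the 10, and miR-551b and miR-33 lie on opposite sides of 0 at the ages.

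Arm names were not used uniformly across the libraries, which bears on the arm results. In 4 of the 103 hairpins 1 library had at least 20 counts on one arm and 0 on the other while another library had the reverse. miR-456, a miRNA of non-mammalian vertebrates, had 3309, 0 and 4500 counts on the 3p name and 0, 3845 and 1 on the 5p name at 1d. None of these 4 hairpins was called. A name at 0 in 1 library and at 300 counts or more in another of the same age was found 21 times over the 12 libraries, 11 of them tested. Of the 30 arm calls 1, miR-15b, has such an arm, with no count on either arm in 1d replicate 2 and 5p counts in every other library, and it is not read further. Without these hairpins 32 of 95 passed, and 29 of the 30 calls were among them.

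Lists of miRNAs typical of other cell types were measured beside the hepatocyte list, and their counts of calls stand against 16.8% higher and 14.2% lower over all tested names. The hepatocyte-enriched list, nearly all of it miR-148a-3p, held 16.3, 20.5 and 16.7% of counts at 1d and 5.74, 5.92 and 6.47% at 14d, and 0 of 6 tested members were higher and 2 lower, both arms of miR-148a. The miR-148a-3p call was lost when 1d replicate 2 or 14d replicate 2 was left out (adjusted p 0.0507 to 0.0516). The miR-148a-5p call was lost when 1d replicate 1, 1d replicate 2, 1d replicate 3, 14d replicate 2 or 14d replicate 3 was left out (adjusted p 0.0577 to 0.117) and when the fit used total count alone (adjusted p 0.0709). miR-194-5p, also of hepatocytes and gut, was low at both ages, and was higher in each 14d library but did not pass (3.53, 3.05 and 1.95 CPM at 1d and 10.2, 34.0 and 9.78 CPM at 14d, edgeR adjusted p = 0.117). miR-215-5p had means of 28.7 CPM at 1d and 49.2 CPM at 14d and did not pass (edgeR adjusted p = 0.533). Of the 6 tested members 3 had no overlap in the higher direction and 3 in the lower, against 36.5% and 22.3% of all tested names. The mesenchymal list held 9.41, 9.47 and 7.79% at 1d and 3.85, 4.48 and 5.52% at 14d, but 4 of 10 tested members were higher and 0 lower on the CPM scale, with 1 and 1 for the total count alone. Of the 4 calls, miR-199-5p held in 2 of 22 settings and miR-214-5p in 5 of 22. With the 6 libraries alone the list had 3 higher and 2 lower, against 58 higher and 71 lower of all 302 names tested in that fit. Its largest member, miR-143-3p, made up 76.3, 77.3 and 76.8% of the list at 1d and 57.6, 57.3 and 61.6% at 14d, while miR-145-5p, encoded beside miR-143 in other vertebrates, went from 0.578, 0.421 and 1.36% of the list to 6.84, 6.40 and 5.20%. miR-214-3p, a miRNA of activated hepatic stellate cells in mammals, rose 9.78-fold (edgeR adjusted p = 4.81e-04), from 41.4, 26.8 and 46.8 to 599, 302 and 224 CPM, or 6.18-fold without 14d replicate 1. Of the 10 tested members 7 had a log2 fold change above 0, against 210 of 345 over all tested names. Lower but not passing were miR-145-3p, miR-143-3p and miR-199-3p. Means of miR-143-3p were 39764 CPM at 1d and 19882 CPM at 14d (edgeR adjusted p = 0.119). Those of miR-199-3p were 9582 and 7435 CPM (edgeR adjusted p = 0.435). The endothelial miR-126 held 4.18, 5.09 and 2.98% of counts at 1d and 2.12, 2.52 and 2.69% at 14d, and neither arm passed.

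The leukocyte list held 4.38, 4.97 and 2.67% at 1d and 1.86, 1.53 and 2.26% at 14d, with 2 of 11 tested members higher and 2 lower, shares near the 16.8% and 14.2% over all tested names. The 2 that fell were the arms of miR-142, which is made in blood cells. miR-142-5p went from 8718, 16175 and 6484 to 3802, 2992 and 3210.0 CPM (3.14-fold lower, edgeR adjusted p = 0.00487) and miR-142-3p was 4.38-fold lower (edgeR adjusted p = 0.00182), both held in every setting. The 2 that rose were the minor arms miR-146a-3p and miR-146b-3p. The miR-146a-3p call was lost when 1d replicate 2 was left out (adjusted p 0.0527) and when the fit used no count filter (adjusted p 0.0798). miR-146c-5p, the most abundant of the list by mean, did not pass (edgeR adjusted p = 0.520). The epithelial list held 0.139, 0.121 and 0.139% at 1d and 0.459, 0.191 and 0.172% at 14d, with 4 of 11 higher and 0 lower. It had 2 higher and 0 lower with the total count alone. With the 6 libraries alone it had 3 higher and 1 lower, against 58 higher and 71 lower of all 302 names tested in that fit. Both arms of miR-200b, an epithelial miRNA found in bile ducts, were among the 4, miR-200b-3p at 86.2, 109 and 125 and then 351, 251 and 286 CPM (edgeR adjusted p = 0.00710). The miR-200b-3p call was lost when the fit used no count filter (adjusted p 0.214). Of the other members called, miR-200a-3p held in 7 of 22 settings and miR-31-5p in 9 of 22, with a log2 fold change of 1.63 that was 0.62 without 14d replicate 1 (edgeR adjusted p = 0.239). Replicate 1 of 14d was also the highest for miR-205a-5p, a skin and squamous epithelium miRNA, at 2252, 486 and 518 CPM at 14d against 276, 288 and 363 CPM at 1d (edgeR adjusted p = 0.212). Of the 11 tested epithelial members 8 had a log2 fold change above 0, against 210 of 345 over all tested names. It was below 0 for miR-429-3p, miR-200a-5p and miR-205b-5p (-0.18, -0.55 and -0.92), and these did not pass. miR-429-3p had means of 115 CPM at 1d and 102 CPM at 14d (edgeR adjusted p = 0.719).

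The muscle list held 0.342, 0.102 and 0.373% at 1d and 0.540, 0.271 and 0.287% at 14d, and 0 of 7 tested members passed. Their median coefficient of variation between birds was 95.2% at 1d and 62.4% at 14d, so a change could be missed. The neural list held 0.0162, 0.0129 and 0.0454% and then 0.0648, 0.0705 and 0.0900%, with 1 of 3 higher, the minor arm miR-9-3p. The miR-9-3p call was lost when any of the 6 libraries compared or any of 4 others was left out (adjusted p 0.0519 to 0.198) and when the fit used relative log expression factors, total count alone, no count filter, the stricter filter, the replicate block or no uneven-zero names (adjusted p 0.0604 to 0.356). In the pancreas list 1 of 4 was higher and the list held 0.00820, 0.00742 and 0.0157% and then 0.0738, 0.0746 and 0.0469%. That member, miR-375-3p, typical of pancreatic islets and other endocrine cells, went from 39.1, 43.4 and 90.2 to 552, 469.5 and 351 CPM (7.94-fold higher, edgeR adjusted p = 0.00643), while miR-217-5p and miR-216b-5p, made in acinar cells, had means of 2.11 and 6.91 CPM at 14d and did not pass. Of the marker lists 5 of 23 epithelial names, 1 of 9 muscle names, 1 of 5 neural names and 0 of 7 pancreas names were at 0 in all 6 libraries. The part of cell composition in these changes was not tested.

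Among the relatives of miR-10 and miR-100, with miR-99 and miR-125 counted in, 3 of 9 tested members were higher and 1 lower. Calls in this group and in the small lists that follow stand against 16.8% higher and 14.2% lower over all tested names. miR-125-5p went from 23.7, 26.4 and 24.8% of the group's counts to 51.3, 45.7 and 35.1%. In the cluster list of miR-23, miR-24 and miR-27 1 of 3 was higher, miR-23b-3p, at 289.9, 310.2 and 397 and then 1054, 706 and 956 CPM (edgeR adjusted p = 0.00778). The miR-23b-3p call was lost when 14d replicate 1 was left out (adjusted p 0.0605) and when the fit used total count alone or no count filter (adjusted p 0.106 to 0.256). Its share of that cluster's counts was 7.16, 7.37 and 9.70% at 1d and 25.5, 23.9 and 21.8% at 14d, the rest being nearly all miR-27b-3p, a repressor of lipid metabolism genes in mammals. In the miR-29 family, which represses collagen genes, 3 of 4 tested members were higher and 0 lower, but 0 with the total count alone. Both minor arms of that family had means of 2.00 and 3.39 CPM at 14d. The miR-29a-3p call held in 3 of 22 settings, and those of the minor arms miR-29a-5p and miR-29b-5p in 9 and 7. In the list of miR-221 and miR-222, repressors of cell cycle inhibitor genes in mammals, 0 of 4 were higher and 2 lower. All 4 names had no overlap in the lower direction, as had 22.3% of all tested names. The miR-221-5p call was lost when any of the 6 libraries compared or any of 3 others was left out (adjusted p 0.0528 to 0.133) and when the fit used total count alone or no count filter (adjusted p 0.0562 to 0.0573). The miR-222a-5p call was lost when 1d replicate 1, 1d replicate 2, 1d replicate 3, 14d replicate 2, 14d replicate 3 or 2y replicate 3 was left out (adjusted p 0.05002 to 0.105) and when the fit used the replicate block (adjusted p 0.0652). The list held 2.42, 2.84 and 4.60% of counts at 1d and 1.28, 0.841 and 1.19% at 14d. With the 6 libraries alone 4 of 4 were lower, in a fit where 71 of all 302 tested names were lower.

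miRNAs that birds do not share with mammals changed in both directions. miR-2954-3p, encoded on the Z chromosome and more abundant in males of other birds, was at 2490.2, 2327 and 2732 and then 18877, 12231 and 9725 CPM (5.41-fold higher, edgeR adjusted p = 0.00290), and the sexes of the birds compared are not known. Both arms of miR-1388 rose together, miR-1388-3p from 20.5, 7.83 and 17.9 to 103, 120.0 and 126 CPM (7.55-fold, edgeR adjusted p = 0.00260) and miR-1388-5p from 40.5, 22.7 and 32.8 to 118, 139 and 209 CPM (4.85-fold, edgeR adjusted p = 0.00260). A further entry, conserved miR-1388a-3p, was not tested and had means of 44.7 CPM at 1d and 1.13 CPM at 14d. All its 1d counts were in replicate 1, at 3.30% of the counts of the list named below against 0.504% for miR-1388-3p. The rise of the 3p arm is therefore stated for the name miR-1388-3p alone, and both entries together were not tested. miR-1662-5p was 2.28-fold lower (928 ± 265 against 2113 ± 411 CPM, SD, n = 3, edgeR adjusted p = 0.0162). The miR-1662-5p call was lost when 1d replicate 2 or 14d replicate 2 was left out (adjusted p 0.0546 to 0.0580). In the list of 4 such families 2 of 8 tested names were higher and 2 lower, against 16.8% and 14.2% over all tested names.

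By kind of name, the 324 pigeon names held 99.7, 99.6 and 99.7% of counts at 1d and 99.9, 99.9 and 99.8% at 14d, and of 236 tested 48 were higher and 43 lower. The 502 conserved names, given for a match to miRNAs of other species, held 0.239, 0.307 and 0.260% and then 0.0842, 0.0950 and 0.120%, and of 56 tested 5 were higher and 4 lower. The 213 predicted names held 0.0812, 0.0504 and 0.0325% and then 0.0543, 0.0341 and 0.0462%, with 5 higher and 2 lower of 53. Calls were 38.6% of tested pigeon names, 16.1% of conserved and 13.2% of predicted names, against 31% over all tested names. In the same order the median coefficient of variation at 1d was 23.8, 87.4 and 87.5%. The conserved class had a lower share of counts in each 14d library, but a large part of its 1d share was the single name miR-3156-5p, described below. The fall is therefore not read as a trait of the class. The conserved miR-5589-5p was at 0, 0.796 and 0 CPM at 1d and 26.4, 14.4 and 22.8 CPM at 14d (edgeR adjusted p = 0.00184), the 1d level resting on 6 counts in replicate 2. The conserved miR-3156-5p was at 656, 1051 and 529.9 CPM at 1d and 0 in each 14d library (edgeR adjusted p = 0.0310). With each 0 set to the floor of 3 counts per library it was 1752-fold lower. Some names were used unevenly across the libraries, as described above, and whether that bears on this name was not tested. The conserved miR-3156-5p call was lost when any of the 6 libraries compared was left out (adjusted p 0.0671 to 0.0860) and when the fit used no count filter (adjusted p 0.227). The predicted miR-16-3p, which is no relative of miR-16, was at 0 in each 1d library and at 15.6, 13.8 and 7.60 CPM at 14d (edgeR adjusted p = 0.00487). With each 0 set to the same floor it was 29.8-fold higher. Of the 107 calls 14 were names at 0 in all 3 libraries of one age, most of them under 10 CPM at the other.

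Names on the 5p arm held 52.6, 48.2 and 51.3% of counts at 1d and 52.3, 51.7 and 53.7% at 14d, and of 177 tested 26 were higher and 24 lower. On the 3p arm 32 of 168 tested were higher and 25 lower. Calls were 28.2% of tested 5p names and 33.9% of tested 3p names, against 31% over all tested names.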

How the data were processed

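Per the labels' protocols, RNA of 10 to 45 nt was gel-selected from TRIzol extracts of 1 pigeon per library and sequenced as single-end reads on an Illumina HiSeq. The submitters' processing notes name Bowtie. In the sources used here no version, genome build or counting rule is given. The authors deposited raw read counts per mature miRNA name, per the file headers.

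Counts were analysed in R 4.3.3 with edgeR 4.0.16 (filterByExpr, TMM factors of 1.30 to 1.96 in the 6 libraries, robust quasi-likelihood fit over all 12 libraries with one mean per age). The arm ratio, log2 of 3p over 5p counts with 0.5 added to each, was fitted with limma 3.58.1 (trend, robust) over the same libraries. Adjusted p values are Benjamini-Hochberg over all tested names or hairpins. Alternatives included other scalings and filters, DESeq2 1.42.0, limma voom, a replicate block and each library left out.

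Libraries of an age differed far beyond sampling noise. Floors cover counting error only. Names were taken by rule: the 8 largest rises and falls with at least 100 CPM and no overlap, the 10 most abundant, up to 3 of each list by adjusted p, the 8 hairpins with the smallest adjusted p and 3 names each of the predicted and conserved classes. Other names, such as partner arms and relatives, were chosen after their values were seen. The members and lists were chosen with earlier results of these data known. Both tests were first tried on simulated counts. Some miRNA families are not reported here.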

Additional observations from a re-analysis of the deposited data

How the results depend on the processing

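The 107 calls became 48 with no filter on low counts (15 higher and 33 lower of 937 tested) and 70 with the replicate block (33 and 37). They were 50 to 118 when 1 library was left out, with 60, 50 and 68 without 1d replicate 1, 2 or 3 and 66, 53 and 66 without 14d replicate 1, 2 or 3, and 80 to 118 without a 28d or 2y library. The count filter was rerun in each of these fits, and 385 to 410 names were tested instead of 345. A call lost there can therefore not be put down to the bird left out alone. Lower calls outnumbered higher ones with DESeq2 (53 higher, 67 lower), the stricter filter (35 and 55) and only the 6 libraries compared (58 and 71), while upper-quartile factors (59 and 50) and limma voom (85 and 56) had more higher. Leaving out names with uneven zeros was chosen after seeing the data. Same-numbered birds of 1d and 14d had deviations correlated at 0.37, 0.11 and -0.04, so the numbers were not taken as pairs.

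The 30 arm calls became 17 of 55 hairpins with at least 100 counts on both arms, 47 with only the 6 libraries compared and 21 to 50 when 1 library was left out (the highest without 28d replicate 1). They were 30 with the replicate block and with a pseudocount of 5. The cause of these shifts was not tested. The log2 fold change of miR-30a-5p, 0.13 and not called, was -0.15 with relative log expression factors, -0.20 with total count alone, -0.32 with no filter, -0.15 with stricter filter, -0.15 with DESeq2, -0.21 with only the 6 libraries compared and -0.29 with the names with uneven zeros left out, and -0.29 to 0.25 with a library left out. The log2 fold change of miR-30e-3p, 0.05 and not called, was -0.25 with relative log expression factors, -0.30 with total count alone, -0.029 with upper-quartile factors, -0.43 with no filter, -0.26 with stricter filter, -0.25 with DESeq2, -0.33 with only the 6 libraries compared and -0.40 with the names with uneven zeros left out, and -0.42 to 0.16 with a library left out. The log2 fold change of let-7i-5p, 0.14 and not called, was -0.12 with relative log expression factors, -0.17 with total count alone, -0.27 with no filter, -0.10 with stricter filter, -0.12 with DESeq2, -0.17 with only the 6 libraries compared and -0.24 with the names with uneven zeros left out, and -0.25 to 0.21 with a library left out. The log2 fold change of miR-146b-5p, 0.06 and not called, was -0.24 with relative log expression factors, -0.27 with total count alone, -0.029 with upper-quartile factors, -0.42 with no filter, -0.25 with stricter filter, -0.24 with DESeq2, -0.34 with only the 6 libraries compared, -0.013 with replicate block and -0.39 with the names with uneven zeros left out, and -0.44 to 0.21 with a library left out. For the miRNAs named, called or not, a call was lost in 320 and gained in 69 combinations of miRNA and setting. In 1773 the direction and the status, called or not called, stayed the same, so these include miRNAs not called in either fit. In 57 the sign changed, whatever the p. For the hairpins, all of them called, the call was lost in 59 and kept in 437. Names under about 10 CPM are limited by depth, since 3 counts came to 0.326 to 0.614 CPM.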
